A study of Bos grunniens with 6 samples.

Results

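The genes described here are 20 transcripts of yak (Bos grunniens) testis that were well expressed in juvenile animals and almost absent after sexual maturity. They were chosen from the expression table by 1 rule, an FPKM (a fragment count scaled by transcript length and sequencing depth) of at least 10 in all 3 juvenile input libraries and below 1 in all 3 mature input libraries. PCOLCE2 was to be left out by name, although no gene paired with that name met the rule. The exclusion could act only on IDs paired with a name, and none of the genes kept had one. The rule kept 20 of 20953 genes, or 0.0955%. Because these same values chose the genes, their expression in the 2 groups is described without a test.

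The testes came from 6 healthy male yaks of 2 ages, 3 yaks of 6 months (Y6M, before sexual maturity) and 3 yaks of 30 months (Y30M, sexually mature), with no treatment. Each age has 3 libraries. Methylated RNA immunoprecipitation sequencing (MeRIP-seq) was performed on testicular RNA, in which fragments carrying N6-methyladenosine (m6A) are pulled down with an antibody and compared with the input RNA. The FPKM values come from the input RNA, and the comparison asks which transcripts differ between the ages.

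The juvenile testis holds seminiferous cords of dividing Sertoli cells and early germ cells within a developing interstitium. At maturity the tubules fill with spermatocytes and spermatids, Sertoli cells stop dividing, and germ cells make up most of the tissue. m6A is placed on adenosines of messenger RNA by a methyltransferase complex and is read by proteins that act on splicing, translation and decay of the transcript. In whole tissue, fewer cells of a type and less RNA per cell cannot be told apart, and this holds for every difference between the ages given here.

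The tissue and ages were checked with genes that carry a name. GSG1, a gene of spermatids, was at 1.09, 0.907 and 0.588 FPKM in Y6M replicates 1 to 3 and at 442, 1204 and 659 FPKM in Y30M. SOX9, a transcription factor of Sertoli cells, was between 33.8 and 40.8 FPKM in Y6M and between 14.4 and 28.3 FPKM in Y30M. Depth was read in relative terms from low FPKM values, which were whole multiples of 1 fragment. The study's own sequencing statistics were not used for this. With Y30M replicate 1 set to 1, relative depth was 0.911, 1.03 and 0.752 in Y6M replicates 1 to 3, while Y30M replicate 2 stood at 1.07 and Y30M replicate 3 at 1.05. The shallowest library was thus the third of Y6M. Summed FPKM over all genes was between 683862 and 702778 in Y6M and between 587932 and 624025 in Y30M.

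None of the 20 genes carried a name. A name was paired with 2147 gene IDs, mostly through peak and differential gene listings of the study, and 0 of the 20 were among them. The RefSeq gene table (assembly Bosgru_T2T1.0) holds no IDs of this kind. The genes are therefore given by their Ensembl-style IDs, with no statement on their function, and whether any belongs to a known testis cell type is not known here. Apart from the 2 genes highest in Y6M and those nearest the limits of the rule, single IDs were picked out after their values had been seen.

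Loss of expression to this degree was rare among juvenile transcripts. In all, 5673 genes reached 10 FPKM in every Y6M library, and the 20 genes were 0.353% of them. Over these 5673 genes the median of the highest Y30M value was 37.1 FPKM, and 87.9% of them were still at 10 FPKM or more in at least 1 Y30M library. Between the 20 genes and that majority lay 36 genes with a highest Y30M value from 1 to 2 FPKM, 203 from 2 to 5 FPKM and 430 from 5 to 10 FPKM. The opposite pattern, at least 10 FPKM in all Y30M libraries and below 1 in all Y6M libraries, was met by 575 of 6273 genes, or 9.17%.

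**Figure D1:**
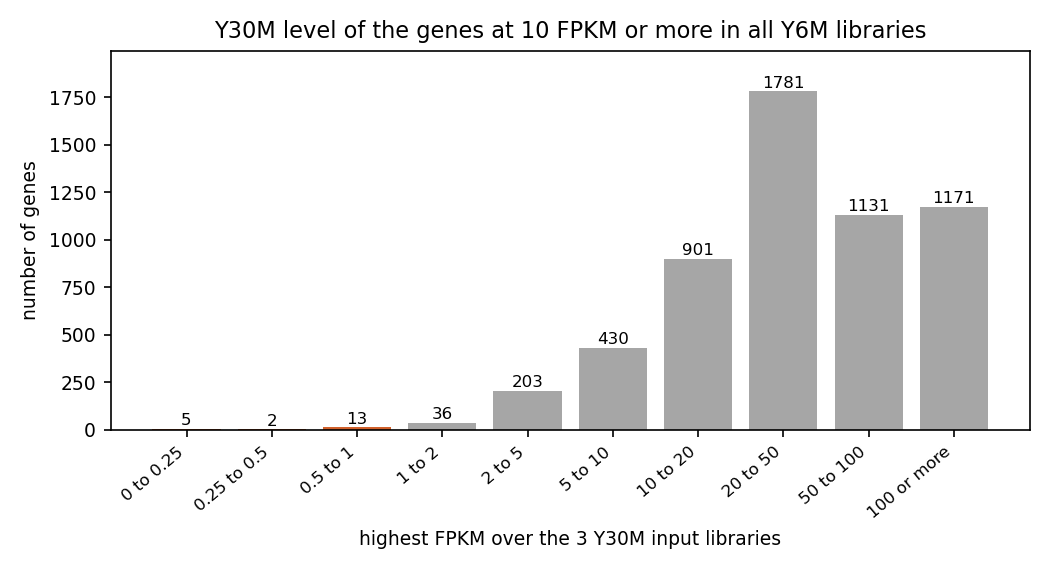
Number of genes (vertical axis) by their highest FPKM over the 3 Y30M input libraries (horizontal axis, bins of unequal width), for the 5673 genes at 10 FPKM or more in all Y6M libraries. The orange bars, 5, 2 and 13 genes below 1 FPKM, are the 20 genes described here, and most genes lie at 10 FPKM or above.

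In Y6M the mean level of the 20 genes ran from 11.99 to 107 FPKM with a median of 19.9 FPKM. In 10 of the 20 genes the mean was at least 20 FPKM, and in 4 it was at least 50 FPKM. In Y30M the means ran from 0 to 0.863 FPKM with a median of 0.404 FPKM. The ratio of the Y6M mean to the Y30M mean, which exists for the 19 genes above 0 in Y30M, ran from 15.9 to 988.5 with a median of 73.0. It was at least 100 in 7 genes and at least 50 in 10 genes. Summed over the 20 genes, the level was 765.5, 660 and 584.8 FPKM in Y6M replicates 1 to 3 and 8.28, 7.51 and 9.76 FPKM in Y30M replicates 1 to 3.

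The libraries of the 2 ages did not overlap in any of the 20 genes, as the rule requires. Over all 19477 genes above 0 in at least 1 library, 21.9% were separated in that direction and 32.2% in the other, and nothing is read from the members' count. The lowest Y6M value stood at 12.3 to 323 times the highest Y30M value in the 19 genes, with a median of 29.9.

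**Figure D2:**
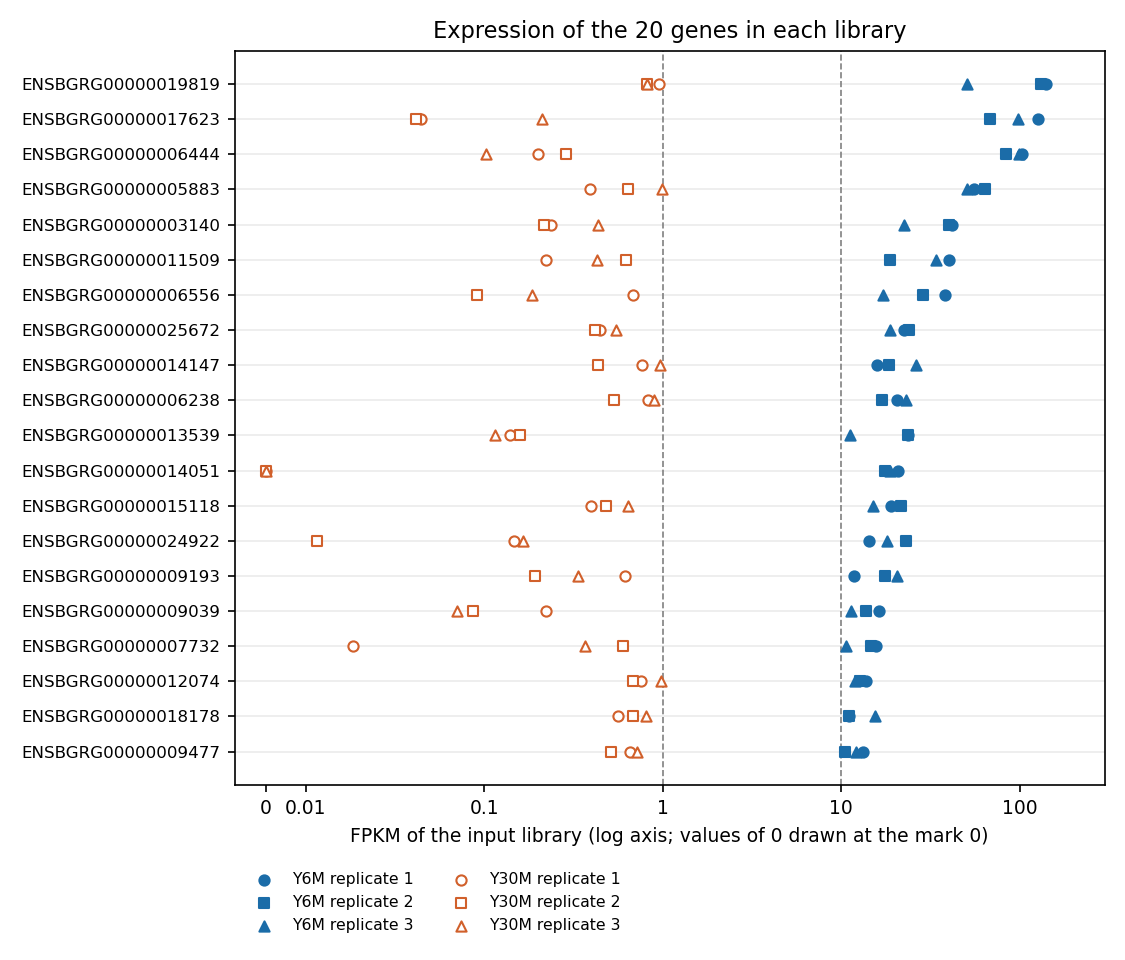
FPKM of each of the 20 genes (rows, ordered by mean Y6M level) in the 3 Y6M (filled blue) and 3 Y30M (open orange) input libraries, on a log axis with values of 0 drawn at the mark 0 and dashed lines at the limits of 1 and 10 FPKM. The Y6M points of the highest gene lie between 50.7 and 140 FPKM, and ENSBGRG00000014051 is at 0 in all Y30M libraries.

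ENSBGRG00000019819 had the highest mean level in Y6M. It was at 140, 131 and 50.7 FPKM in Y6M replicates 1 to 3 (107 ± 49.3, SD, n = 3) and at 0.951, 0.818 and 0.819 FPKM in Y30M (0.863 ± 0.0764, SD, n = 3). Replicate 3 of Y6M was well under the other two, which made this the most variable of the 20 genes in Y6M (coefficient of variation 45.9%), while the Y30M libraries lay close together. The ratio of means was 124.

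ENSBGRG00000017623 was second in level and had the greatest ratio. Its values were 127, 67.9 and 97.7 FPKM in Y6M (97.5 ± 29.5, SD, n = 3) and 0.0441, 0.0413 and 0.211 FPKM in Y30M (0.0987 ± 0.0970, SD, n = 3). In Y30M the third library was the high one. The ratio of means was 988.5, but the Y30M values rested on 1, 1 and 5 fragments against 2623, 1594 and 1666 fragments in Y6M. The depth-corrected ratio of fragments was 970 with a 95% exact Poisson interval from 471 to 2415, which covers counting error only. Without Y30M replicate 3 the ratio of means was 2285. The ratio moved by over 1.5 times without 1 library in 4 of the 19 genes, the others being ENSBGRG00000006556 (from 88.1 to 203 without Y30M replicate 1), ENSBGRG00000007732 (from 41.5 to 70.7 without Y30M replicate 2) and ENSBGRG00000009039 (from 108.9 to 175 without Y30M replicate 1).

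ENSBGRG00000006444 was nearly as high and less variable, at 104, 83.5 and 98.7 FPKM in Y6M (95.3 ± 10.5, SD, n = 3) and 0.200, 0.287 and 0.102 FPKM in Y30M (0.196 ± 0.0925, SD, n = 3). Its ratio of means was 486. The Y6M libraries of these 3 leading genes overlapped, so their order in Y6M is not separated by the spread between libraries.

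ENSBGRG00000005883 was at 55.9, 64.1 and 50.4 FPKM in Y6M. In Y30M it was at 0.392, 0.638 and 0.993 FPKM, so that 1 library came close to the limit of 1 FPKM. The other 16 genes had Y6M means from 11.99 to 34.8 FPKM. Of the 19 neighbouring pairs in the order of the 20 genes, 17 had overlapping Y6M libraries, so the order is not separated by the spread there.

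ENSBGRG00000014051 was the only one of the 20 genes listed at 0 in all Y30M libraries, against 20.8, 17.5 and 18.9 FPKM in Y6M (19.1 ± 1.63, SD, n = 3). Its coefficient of variation in Y6M was 8.54%. These levels came from just 24, 23 and 18 fragments, too few for that coefficient to show a steady level. The gene had 1.27 fragments per FPKM. That was the lowest of the 5633 genes at 10 FPKM or more in Y6M for which fragments could be found. Set against a floor of 3 fragments in each Y30M library, it was at least 8.06-fold lower in Y30M.

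The number of fragments behind the other values was larger. Of the 20 genes, 19 had at least 100 fragments in every Y6M library. In Y30M, 13 had at most 50 fragments in every library and 3 had at most 10. Total Y30M fragments ran from 0 to 313 with a median of 51.5. The fragments per FPKM, which follow transcript length, had a median of 61.4 over the 20 genes and 60.6 over the genes at 10 FPKM or more in all Y6M libraries.

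The spread between Y30M libraries was widest in ENSBGRG00000006556, at 0.679, 0.0909 and 0.185 FPKM (coefficient of variation 99.2%), followed by ENSBGRG00000017623 with 98.3%. Low values of a single library stood out in the next genes of that order. ENSBGRG00000007732 was at 15.7, 14.7 and 10.6 FPKM in Y6M and at 0.0183, 0.601 and 0.368 FPKM in Y30M, where it had 1, 35 and 21 fragments. ENSBGRG00000024922 was at 14.3, 23.0 and 18.1 FPKM in Y6M and at 0.148, 0.0115 and 0.165 FPKM in Y30M, with 12, 1 and 14 fragments. In ENSBGRG00000007732 and ENSBGRG00000024922 alike, 1 Y30M library rested on 1 fragment, and it was a different library in each.

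**Figure D3:**
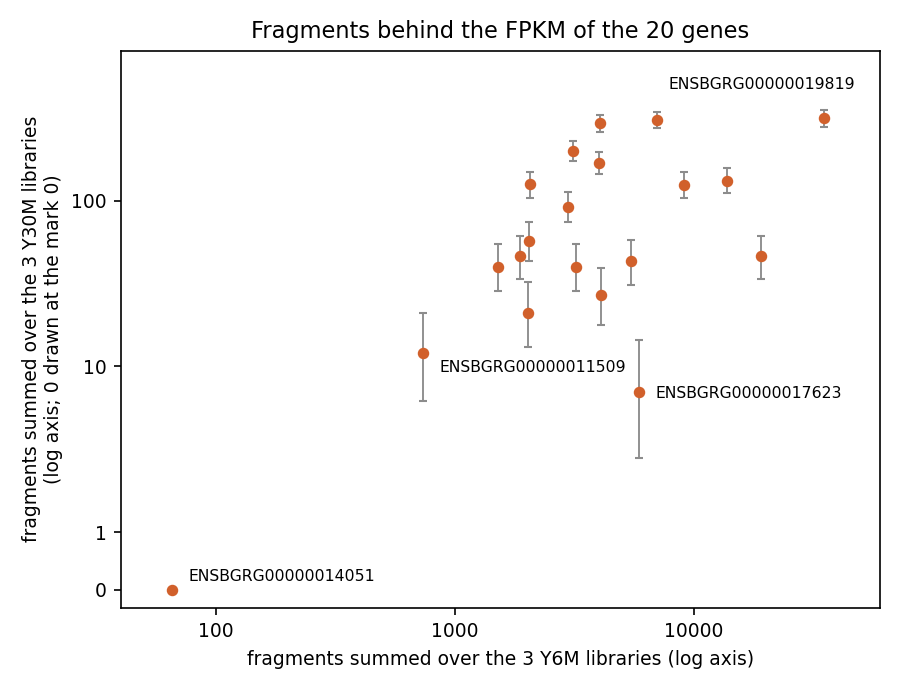
Fragments summed over the 3 Y30M libraries (vertical axis) against fragments summed over the 3 Y6M libraries (horizontal axis) for the 20 genes, both on log axes, with 95% exact Poisson intervals of the Y30M sum as bars where it is above 0. ENSBGRG00000017623 has 7 Y30M fragments beside 5883 in Y6M, and ENSBGRG00000014051 has 0 beside 65.

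Among the Y6M libraries the 20 genes did not move as 1 block. The coefficient of variation in Y6M ran from 6.81% to 45.9% with a median of 20.2%, against a median of 17.8% over the genes at 10 FPKM or more in all Y6M libraries. Replicate 1 was the highest Y6M library in 12 of the 20 genes, against 26.8% of those 5673 genes, and replicate 3 was the lowest in 10 of the 20, against 45.2%. Replicate 3 was at 22.4 FPKM for ENSBGRG00000003140, where replicates 1 and 2 were at 41.7 and 40.1 FPKM. It was at 11.3 FPKM for ENSBGRG00000013539, where the others were at 23.8 and 23.6 FPKM. The opposite order was seen in ENSBGRG00000014147, which was highest in replicate 3, at 26.4 FPKM against 15.8 and 18.5 FPKM. ENSBGRG00000012074 was the steadiest, at 13.7, 12.7 and 11.96 FPKM. In Y30M, replicate 3 was the highest library in 11 of the 19 genes above 0 and replicate 2 the lowest in 11. Matching shares over all genes are not given here. The median-of-ratios factor, a scale of the whole library, was 1.17, 0.861 and 1.15 in Y30M replicates 1 to 3. Nothing is therefore read from these Y30M counts.

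The members nearest to the limits were close to genes that the rule left out. ENSBGRG00000009477 had its lowest Y6M value at 10.5 FPKM and ENSBGRG00000007732 at 10.6 FPKM. Just outside, ENSBGRG00000010461 was at 10.5, 10.4 and 9.82 FPKM and ENSBGRG00000023996 at 29.7, 34.2 and 9.78 FPKM in Y6M, with both under 1 FPKM in Y30M. At the upper limit of Y30M, ENSBGRG00000005883 reached 0.993 FPKM and ENSBGRG00000012074 reached 0.974 FPKM. ENSBGRG00000013196 was left out with a highest Y30M value of 1.06 FPKM and ENSBGRG00000006411 with one of 1.07 FPKM.

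The rule did not use the m6A peaks, but the input libraries it used were the control in calling them. It held the 20 genes below 1 FPKM in Y30M, so their share with a peak is not independent of the rule. Peaks were called over the replicates of both ages together, so a peak has 1 value and no replicates, and the shares below are descriptions. Of the 20 genes, 3 carried a peak, or 15%, with 7 peaks among them. Over all genes 8634 of 20953 carried a peak, or 41.2%, and over the genes at 10 FPKM or more in all Y6M libraries 61.8% did. The share was 65.3% over such genes within the members' range of mean Y6M level, and 63.5% over 5228 other such genes within their range of total Y6M fragments, from 733 to 35190. The range of fragments leaves out ENSBGRG00000014051, the member with the fewest fragments. Neither range was set on Y30M. Of the genes at 10 FPKM or more in all Y6M libraries, 87.9% still reached 10 FPKM in at least 1 Y30M library.

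The share among the genes chosen moved with the rule. It was 7 of 27 (25.9%) without Y30M replicate 3, 13 of 45 (28.9%) with Y6M at 5 FPKM or more, 20 of 56 (35.7%) with Y30M below 2 FPKM and 13 of 55 (23.6%) on group means. It was 1 of 14 (7.14%) on TPM, 0 of 5 with Y6M at 20 FPKM or more and 0 of 7 with Y30M below 0.5 FPKM. Both genes left out just above the Y30M limit, ENSBGRG00000013196 and ENSBGRG00000006411, carried 1 peak each.

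The share with a peak also varied with the level in Y30M. Among genes at 10 FPKM or more in all Y6M libraries, 17 of 36 (47.2%) with a highest Y30M value from 1 to 2 FPKM carried a peak. The share was 53.2% from 2 to 5 FPKM, 65.8% from 5 to 10 FPKM, 71.2% from 10 to 50 FPKM and 51.6% at 50 FPKM or more. These ranges were set after the data had been seen. The part of the Y30M level in the share was not tested.

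**Figure D4:**
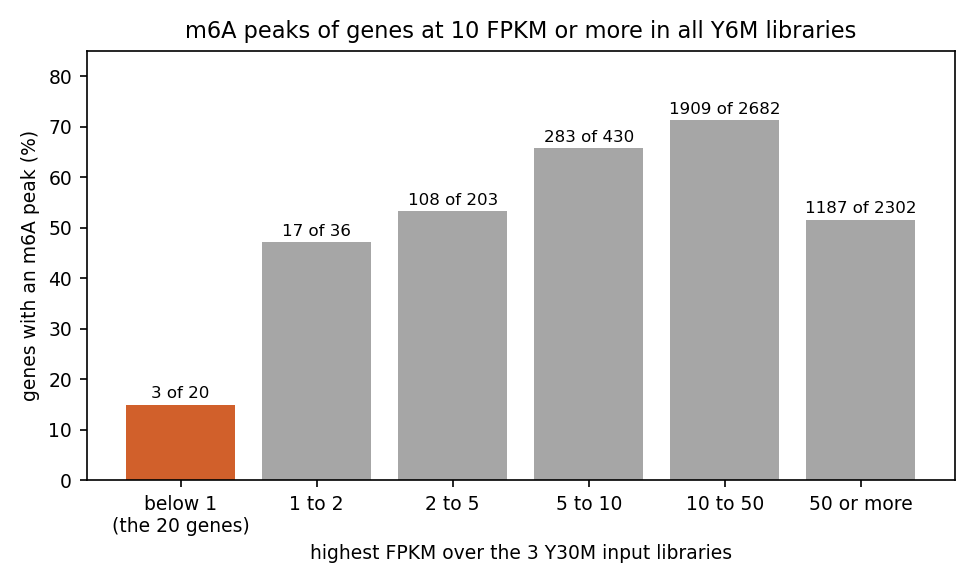
Percentage of genes with an m6A peak (vertical axis, from 0) by highest FPKM over the 3 Y30M input libraries (horizontal axis), for genes at 10 FPKM or more in all Y6M libraries. The 20 genes (orange, 3 with a peak) stand at 15%, and the other bars stand between 47.2% and 71.2%.

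The 7 peaks lay on 3 genes of middle to low Y6M level. Coordinates are those of the yak build LU_Bosgru_v3.0 and all peaks were on the minus strand. Whether they fall in a coding part or an untranslated part was not analysed here. None of the 4 genes with a Y6M mean of at least 50 FPKM carried a peak.

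ENSBGRG00000014147 carried 1 peak, on chromosome 14 from 32480262 to 32480558, in a single block of 297 bases. Its enrichment of immunoprecipitated over input RNA was 2.05-fold with an FDR of 2.4e-06 from the authors' peak caller. It was the only one of the 7 peaks with an FDR of at most 0.05, a level met by 69% of all 16318 peaks. The gene was at 0.771, 0.436 and 0.965 FPKM in Y30M.

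ENSBGRG00000006238 carried 4 peaks on chromosome 18. The first 3 were single blocks and ran from 49864389 to 49865135, from 49865285 to 49865982 and from 49866131 to 49866679, with enrichments of 2.93-fold, 2.31-fold and 3.25-fold. The fourth spanned 50137839 to 50436454 in 4 blocks that together held 350 bases, with an enrichment of 2.21-fold. The FDR was 1 for each of them. This gene was at 20.5, 17.0 and 23.2 FPKM in Y6M and at 0.824, 0.536 and 0.896 FPKM in Y30M.

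ENSBGRG00000009477 carried 2 peaks on chromosome 11. The first ran from 46754262 to 46754459 with an enrichment of 2.69-fold, and the second spanned 46763766 to 46776719 in 3 blocks holding 198 bases with an enrichment of 1.85-fold. Both had an FDR of 1, as did 27.8% of all peaks. This gene had the lowest mean level of the 20 in Y6M, at 13.3, 10.5 and 12.2 FPKM.

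All 7 peaks overlapped peaks in the list of scored adenosines for Y6M. That list gives a prediction score between 0 and 1 to the adenosines it lists within a peak, and the lowest score named a site was 0.528. The Y6M peak on ENSBGRG00000014147 spanned 346 bases and held 5 scored adenosines, of which 2 were predicted sites. The shares here are therefore of scored adenosines, not of all adenosines in a peak. The peak over the 3 neighbouring peaks of ENSBGRG00000006238 held 9 predicted sites among 37 scored adenosines, or 24.3%. The longer Y6M peak of that gene held 1261 of 6733, or 18.7%, over a span of 298814 bases that takes in the gaps between blocks. On ENSBGRG00000009477 the shares were 25% of 64 and 24.3% of 1139 scored adenosines. Over the whole Y6M list 21.5% of scored adenosines were predicted sites. The scores are predictions and carry no error.

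Named genes of the testis were set beside the 20 genes, whose large ratios are fixed by the rule. In all, 12 lists of 242 different genes covered Sertoli cells, Leydig cells, peritubular cells, matrix, signals, vessels, leukocytes and germ cells. Only 38 of the 242 were paired with a name and tested. Names came mostly from peak and differential gene listings, so the counts do not speak for whole lists. Some of those listings are of this same contrast, so a gene that differs was more likely to have a name. Nothing is therefore read from the share called among named genes beside that of all genes. Of the 38, 22 were lower in Y30M, 6 were higher and 10 were not called (limma on log2(FPKM + 1), unadjusted p up to 0.05 with a minimum fold change of 1.5). Over all 19477 genes tested 46.3% were called, 19% lower and 27.3% higher. Log2 fold changes had a median of -1.21 in the 38 genes and of 0.04 in all genes. None of the 38 met the rule, although 19 of them were at 10 FPKM or more in all Y6M libraries.

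Most named genes that fell stood on the lists of somatic cells, matrix and signals. The lists of spermatogonia, spermatocytes and spermatids held only 0, 3 and 2 of the named genes, so this says little of cell types. In the juvenile and general list of Sertoli cells, the supporting cells of the germ line, 5 of 5 named genes fell, while 0 of 2 on the separate list of barrier genes were called. INHBA, which encodes a subunit of activin A, was at 93.6, 93.3 and 129 FPKM in Y6M and at 5.32, 3.93 and 8.46 FPKM in Y30M, a 17.8-fold ratio of means and the largest of the 38 (log2 fold change -3.98 ± 0.28 SE, limma, Benjamini-Hochberg adjusted p = 0.000308). FSHR, the receptor of follicle-stimulating hormone, had a ratio of 5.75 and GATA6, a transcription factor, one of 5.49. In the Leydig and steroid list both named genes fell. LHCGR, the receptor of luteinizing hormone, had a ratio of 16.7 and a Y30M mean of 2.83 FPKM, and the steroid 21-hydroxylase gene CYP21A2 had a ratio of 8.47 from a Y6M mean of 3.88 FPKM.

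In the extracellular matrix list 7 of 8 named genes fell. COL5A1, a chain of collagen V, had a ratio of 14.4, COL6A1, a chain of collagen VI, one of 7.27, and MGP, matrix Gla protein, one of 5.63. In the list of growth factor signals, which shares INHBA with the Sertoli list, 5 of 6 fell, with a ratio of 4.68 for IGFBP4, a binding protein of insulin-like growth factors, and 4.32 for the ligand WNT6. In endothelium 3 of 4 fell, CDH5 and PECAM1, both junction proteins, and TEK, a receptor of angiopoietins, with ratios of 3.43, 3.10 and 2.32. The lowest ratio among the 20 genes, 15.9 for ENSBGRG00000012074, lay under those of INHBA and LHCGR alone. The rule itself puts every ratio of the 20 genes above 10, so nothing is read from this order.

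The remaining lists did not move one way. The barrier genes of Sertoli cells, TJP1 and GJA1, had log2 fold changes of -0.08 ± 0.24 and -0.63 ± 0.52 (SE) and were not called. ACTG2, a smooth muscle actin, rose and SMTN was not called (log2 fold change -0.13 ± 0.21 SE). In the imprinted and growth list IGF2BP2 fell, its relative IGF2BP3 rose, both RNA-binding proteins, and NNAT was not called. In leukocytes AIF1, a gene of macrophages, rose and CD4 was not called. In spermatocytes SYCP3, a protein of the synaptonemal complex, rose, HORMAD1 and MLH3 were not called, and in spermatids SPATA18 and GSG1 rose. No gene of the spermatogonia list was paired with a name.

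**Figure D5:**
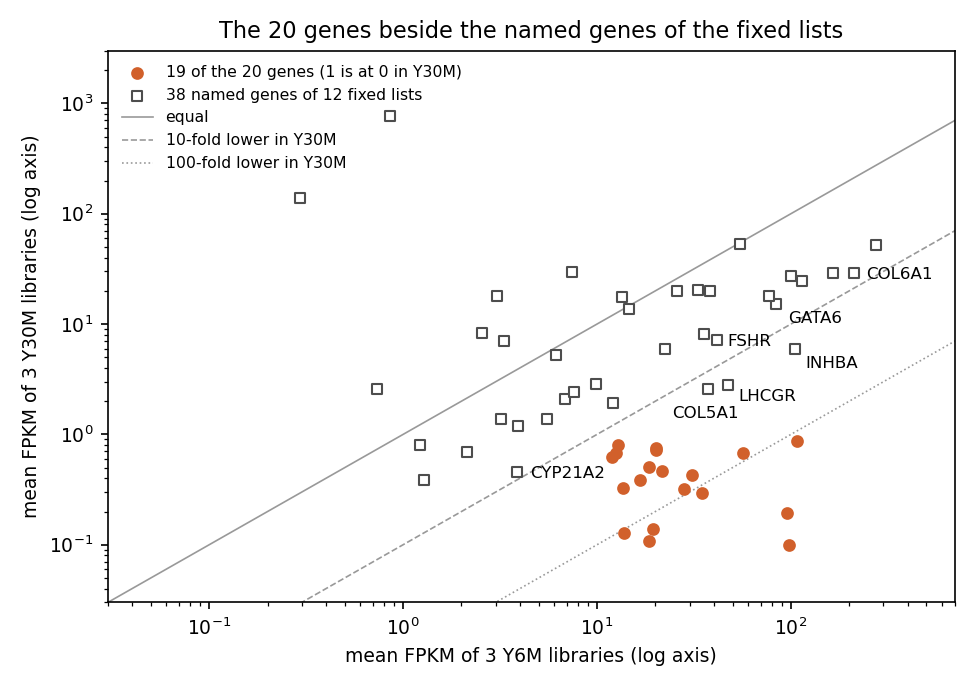
Mean FPKM in Y30M (vertical axis) against mean FPKM in Y6M (horizontal axis) on log axes, for 19 of the 20 genes (orange) and all 38 named genes of the 12 lists (open squares), with lines of equal, 10-fold lower and 100-fold lower level in Y30M. The 19 genes lie below the 10-fold line, as the rule requires. Of the named genes only INHBA, LHCGR and COL5A1 also lie there.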

How the data were processed

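Testis RNA of 3 Y6M and 3 Y30M yaks was analysed by MeRIP-seq. Per the study's methods, the authors trimmed reads with Trimmomatic, removed ribosomal reads with SortMeRNA, aligned with HISAT2 to LU_Bosgru_v3.0 and called peaks with MeTDiff, using input libraries as control. The tool behind the FPKM is not given in the sources used here. The authors deposited FPKM per gene and input library, already scaled by length and depth, which loses the counts. The deposited peak table gives a fold enrichment (a ratio of immunoprecipitated to input signal) with the log10 p and FDR of each peak. The deposited Y6M list gives a prediction score per listed adenosine. The peak table also holds fold changes, p-values and FDR of the authors' own comparison of the ages, which were not used. The list for Y30M was not used here.

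Genes were taken as listed, and the members and gene lists were chosen with earlier results of these data known. Groups came from the sample titles. Differences of all genes were fitted with limma 3.58.1 in R 4.3.3 (lmFit and eBayes) on log2(FPKM + 1) over 19477 genes above 0 in at least 1 library, tested on simulated data first. The pseudocount understates changes of low genes. FPKM is not a count, so no count test was used. The thresholds were those of the study's methods. Since members were chosen on this contrast, no test is given for them. The p-values measure the spread between 3 yaks a group.

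Whole fragments were recovered from ratios of low FPKM for 99.8% of 18572 genes, within a tolerance of 0.001 or wider for large numbers, as the smallest whole numbers that fit. True numbers could be a common multiple. Exact Poisson intervals at 95% and the floor of 3 fragments cover counting error only. Named genes were the 2 unnamed members highest in Y6M, the genes nearest to each limit and, per list, up to 3 called genes without overlap and with the largest change. Others were named after their values had been seen. Deviations of same-numbered Y6M and Y30M libraries correlated at 0.209, 0.283 and 0.604 over all genes. Over the 20 genes these values were -0.065, -0.171 and 0.293. Libraries of the same number were paired only in the replicate block, an alternative, and the fit behind the values given was unpaired. The grounds for pairing come from the data, not from the labels. Replicate 1 of Y6M correlated more with replicate 2 of Y30M (0.322). Scaling, thresholds, pseudocount, filter, replicate block, a mean-variance trend and left-out libraries were tried as alternatives.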

Additional observations from a re-analysis of the deposited data

How the results depend on the processing

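The number of genes depended on the limits. It was 45 with Y6M at 5 FPKM or more, 5 at 20 or more, 7 with Y30M below 0.5 FPKM, 56 below 2 FPKM and 55 when group means had to pass. Equal library sums (TPM) gave 14 genes, all among the 20, and a median-of-ratios factor gave 25 that included the 20. Leaving out 1 library gave 20 to 29. With peaks limited to an FDR of at most 0.05, 1 gene kept a peak. The direction of the 20 genes is fixed by how they were chosen and is no sign of stability. Genes called numbered 8143 to 8945 without 1 library (3103 to 3736 lower, 4791 to 5349 higher) and 9747 with the replicate block that pairs the libraries, 4131 of them lower. The block ended no call of the 28 called list genes and added 3. None of the 28 called list genes reversed. Among those not called, HORMAD1, TJP1, MATN2 and SMTN changed sign under some settings and stayed uncalled. In all 3 list genes lost their call, ACTG2 without Y6M replicate 2 (log2 fold change 1.08, limma unadjusted p = 0.06), and SOX9 (-0.94) and TEK (-0.81) at a fold change of at least 2. After the data had been seen, limma was run both with and without a mean-variance trend. The values given are those without it, as the design was written, and the trend gave 9080 calls in place of 9011 and changed the call of 2 list genes, EMCN and CD4. Depth limits the Y30M values of genes with few fragments, and the shallower Y6M replicate 3.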
